A study of Mus musculus with 12 samples.

Results

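The genes described here were the 10 members of the insulin-like growth factor (IGF) family of the mouse that carry the symbols Igf1, Igf2, Igf1r and Igfbp1 to Igfbp7, which were found by symbol in a table of 23472 genes. All 10 were found, and all 10 were among the 14489 genes expressed highly enough to be tested. The libraries came from male C57BL/6 mice of 12 to 14 weeks. Fibrosis was induced with carbon tetrachloride (CCl4), a hepatotoxin, injected into the peritoneum at 0.6 µl per g body weight, diluted to 15% in olive oil, 2 times per week for 6 weeks, and control mice received olive oil. Fractions of liver sinusoidal endothelial cells (SEC) and hepatic stellate cells (HSC) were isolated on density gradients, SEC with an added magnetic bead step, and were sequenced fresh without culture. The groups were Q-SEC and Q-HSC from control mice and F-SEC and F-HSC from CCl4 mice, with 3 libraries in each and 12 in all.

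IGF1 and IGF2 are secreted growth factors that signal through the receptor tyrosine kinase IGF1R, and growth hormone drives the hepatic output of IGF1. The binding proteins IGFBP1 to IGFBP6 hold the ligands with high affinity, carry them in blood and matrix, and release them when proteases cut the binding protein. IGFBP7 binds IGFs only weakly and is known as a matrix protein of vessels. In the liver, hepatocytes are the main source of circulating IGF1 and of IGFBP1, while non-parenchymal cells are known to produce IGFBP3.

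Levels are counts per 1000000 reads (CPM), scaled for the composition of the library, and values over a group are means ± SD of 3 libraries. Gene counts per library summed to between 8714228 and 13068564, so that 3 counts, taken as the floor in a library, stood for 0.229 to 0.335 CPM. Changes are log2 differences ± SE with adjusted p-values from the quasi-likelihood test of edgeR, and a gene was called at an adjusted p under 0.05. No label states that the 3 libraries in a group are from different mice, and p-values here speak only for the scatter between libraries, part of which may be technical. Every fraction held markers of several cell types. Endothelial markers (9 genes) summed to 18777 to 22304 CPM in Q-SEC and to 6517 to 8490 CPM in Q-HSC. Stellate markers (9 genes) summed to 565 to 2647 CPM in Q-HSC and to 1145 to 1803 CPM in F-HSC, below the 7244 to 21308 CPM and 5913 to 15130.0 CPM of the 10 Kupffer cell and macrophage markers in the same libraries. In F-SEC stellate markers summed to 2155 to 4212 CPM, above every F-HSC library, and endothelial markers to 7095 to 10186 CPM, overlapping with Q-HSC. Myofibroblast markers (6 genes) summed to 7651 to 18939.5 CPM in F-SEC and to 3259 to 7856 CPM in F-HSC. Library 1 of both control groups stood apart, with stellate sums in library order of 2011, 227 and 142 CPM for Q-SEC and of 2647, 702 and 565 CPM for Q-HSC.

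Igfbp1, which had the largest called change with CCl4 among the members, lies beside Igfbp3 on mouse chromosome 11 (mm10). Igfbp3 had the widest spread between libraries and was not called in any comparison by the main edgeR fit. Igfbp1 spans 7197787 to 7202546 on the plus strand and Igfbp3 spans 7206091 to 7213923 on the minus strand, with 3544 bases between their ends. GENCODE gives Igfbp1 1 transcript of 4 exons, and Igfbp3 2 transcripts of up to 5 exons. The 250 bases before each RefSeq start (GRCm38.p6, the assembly of mm10) are shown because these neighbours followed different patterns in the libraries. For Igfbp1 this is chr11:7197537-7197786 on the plus strand, and for Igfbp3 chr11:7213924-7214173 on the minus strand, both written 5′ to 3′ with motif matches in capitals.
Igfbp1: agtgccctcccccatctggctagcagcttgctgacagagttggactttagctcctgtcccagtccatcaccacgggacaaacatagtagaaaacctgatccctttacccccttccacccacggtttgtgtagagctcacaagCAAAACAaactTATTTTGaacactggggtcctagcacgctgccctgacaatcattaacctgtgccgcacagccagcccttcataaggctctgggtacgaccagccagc
Igfbp3: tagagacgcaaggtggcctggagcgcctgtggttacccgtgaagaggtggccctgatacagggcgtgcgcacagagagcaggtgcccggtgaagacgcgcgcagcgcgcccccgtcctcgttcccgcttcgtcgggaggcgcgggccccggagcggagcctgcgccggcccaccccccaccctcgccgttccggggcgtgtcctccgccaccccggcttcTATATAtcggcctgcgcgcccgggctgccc
Searched on both strands were CAAAANA, the core of insulin response elements, the TATA forms TATAAA and TATATA, and the GC box GGGCGG, all chosen with the sequences in view. Igfbp1 held 2 matches of CAAAANA, of which the upstream one begins 108 bases before the start and the other, on the opposite strand, begins 97 bases before it. This motif was found in 16.9% of 32851 promoter windows of the same length. Igfbp3 held 1 match of TATATA, which reads the same on both strands and begins 30 bases before its start, a motif found in 5.25% of windows. TATAAA (12.4% of windows) and GGGCGG (32.7%) were found in neither. The matches describe the letters only and say nothing on binding.

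In levels per length (RPKM), Igfbp7 and Igfbp4 made up most of the binding protein RNA in all 12 libraries. Igfbp7 took 75.9 ± 0.96% of the summed RPKM of Igfbp1 to Igfbp7 in Q-SEC, 76.5 ± 3.50% in F-SEC, 71.0 ± 2.01% in Q-HSC and 56.1 ± 8.84% in F-HSC. Igfbp4, an inhibitory carrier that the protease PAPP-A cleaves, took 22.4 ± 1.96, 13.7 ± 1.91, 23.2 ± 4.05 and 22.4 ± 2.68% in the same order. Igfbp3, the main carrier of IGF in serum, took 1.02 ± 1.60% in Q-SEC and 8.67 ± 3.97% in F-SEC. Igfbp1 took 0.921 ± 0.22% in Q-HSC and 11.5 ± 5.01% in F-HSC. Igfbp2, Igfbp5 and Igfbp6 each stayed under 1% as a group mean in all 4 groups. The summed RPKM of the binding proteins came to 2026 ± 478 in Q-SEC, 2650.0 ± 280 in F-SEC, 999 ± 569 in Q-HSC and 1121 ± 155 in F-HSC.

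**Figure D1:**
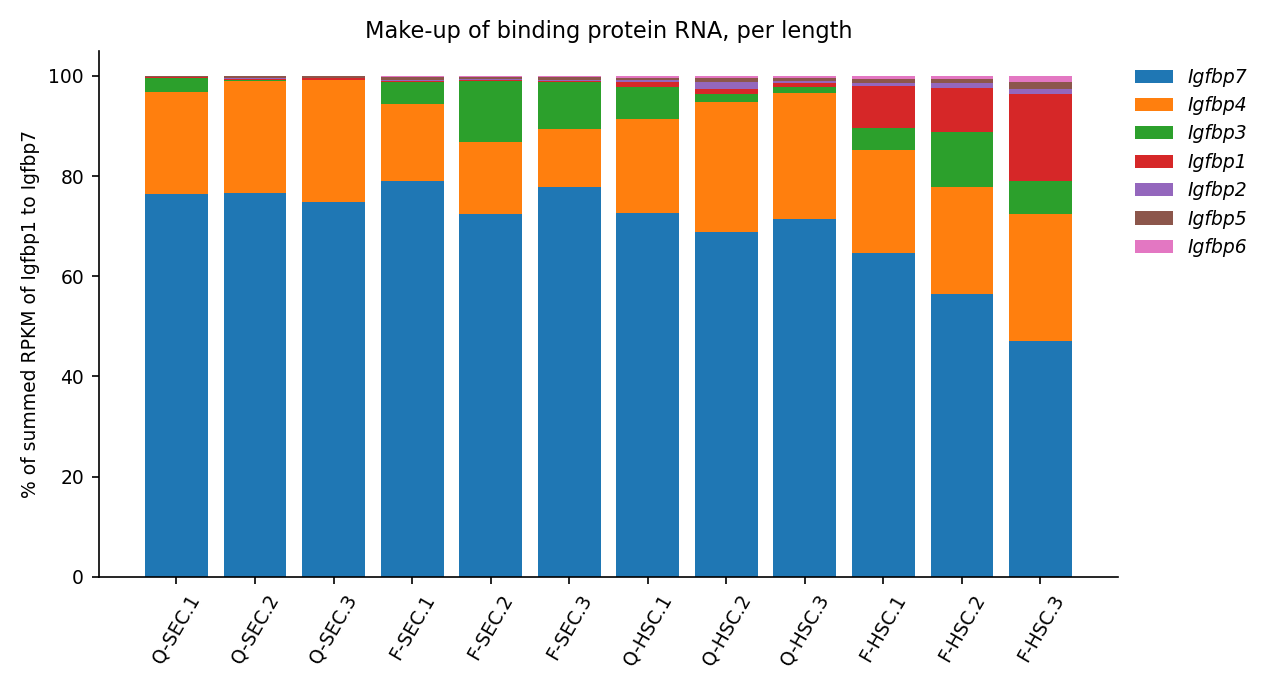
Share of each binding protein in the summed RPKM of Igfbp1 to Igfbp7 (y axis, percent, bars stacked to the whole) in each of the 12 libraries (x axis). Igfbp7 is the largest share in every library, Igfbp1 is visible in the F-HSC libraries (8.39, 8.82 and 17.3%) and Igfbp3 is largest in F-SEC.2 at 12.3%.

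F-SEC was set against Q-SEC to see how the IGF genes of the SEC fraction responded to CCl4. The ligand Igf1 and the binding proteins Igfbp5 and Igfbp6 rose 2.99- to 3.65-fold, and no member was called lower. Thus 3 of 10 members were called, 3 higher and 0 lower, where 23.8% of all tested genes were called (11.8% higher and 12.1% lower). The median log2 change was 0.41 over the members and -0.05 over all tested genes. The libraries of the groups did not overlap for 6 of 10 members, against 43.7% of all tested genes.

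Igf1 (chromosome 10, 87859056 to 87937047, plus strand) measured, in library order, 18.3, 42.9 and 35.4 CPM in Q-SEC and 87.2, 90.6 and 111 CPM in F-SEC. All F-SEC libraries were above all Q-SEC libraries, with Q-SEC.1 the lowest. The log2 change was 1.58 ± 0.41 (2.99-fold, edgeR adjusted p = 0.019), with an adjusted p of 0.056 without Q-SEC.3. Between the groups, Kupffer cell and macrophage markers moved with it. Of the 10 markers, 6 rose and 0 fell (median 2.09), and none was at 0 in all libraries of a group. In library order their sum was 901, 700 and 322 CPM in Q-SEC and 2103, 3959 and 1981 CPM in F-SEC. Within neither group did the order of the sums match that of Igf1. Other marker lists rose as well, with 6 of 6 myofibroblast, 3 of 9 stellate and 2 of 4 scar-associated macrophage markers higher and 0 lower. Of the endothelial markers 6 of 9 fell. A list set beside 1 gene, here or below, is thus not particular to that gene. The part of these markers in the change was not tested. In bulk fractions, more cells of a type and more RNA per cell cannot be told apart.

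Igfbp5 (chromosome 1, 72858065 to 72874865, minus strand), a binding protein that attaches to matrix, measured 21.4, 36.1 and 36.7 CPM in Q-SEC and 119, 98.8 and 103 CPM in F-SEC. The groups were far apart, with Q-SEC.1 well below the other Q-SEC libraries. The log2 change was 1.77 ± 0.31 (3.41-fold, adjusted p = 0.0036), and over the 6 fits that left out 1 library of these groups the adjusted p stayed between 0.0075 and 0.016. Igfbp6 (chromosome 15, 102144186 to 102149512, plus strand), which prefers IGF2, was far scarcer, at 1.70, 3.98 and 2.16 CPM in Q-SEC and 14.0, 6.20 and 8.46 CPM in F-SEC. It rose by 1.87 ± 0.52 (3.65-fold, adjusted p = 0.025), but was no longer called without Q-SEC.1 (0.069), Q-SEC.3 (0.090) or F-SEC.1 (0.094). Between the groups, myofibroblast markers moved with both genes, with 6 of 6 higher and none at 0 in all libraries of a group. In library order their sum was 378, 46.55 and 40.4 CPM in Q-SEC and 13229.5, 7651 and 18939.5 CPM in F-SEC. Within neither group did the order of the sums match that of Igfbp5 or Igfbp6. The part of these markers was not tested.

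Igfbp3 had the widest spread of the family. It measured 250.4, 6.38 and 4.64 CPM in Q-SEC and 386, 911 and 744 CPM in F-SEC. Q-SEC.1 stood far above its companions and still below every F-SEC library. The log2 change was 2.96 ± 1.42 and was not called (adjusted p = 0.15). Without Q-SEC.1 it was 6.94 ± 1.32 (adjusted p = 0.0066), and with the replicate number as a block it was 4.90 ± 1.60 (adjusted p = 0.048). The stellate marker sum was 2011, 227 and 142 CPM in Q-SEC and 2155, 3857 and 4212 CPM in F-SEC. Of the 9 stellate markers 3 rose and 0 fell (median 2.44), and none was at 0 in all libraries of a group. Their part in the level of Igfbp3 was not tested.

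The receptor and the abundant binding proteins gave no call. Igf1r (chromosome 7, 67952257 to 68233667, plus strand) measured 127, 141 and 120.4 CPM in Q-SEC and 80.0, 94.4 and 94.0 CPM in F-SEC, without overlap, at a log2 difference of -0.53 ± 0.18 (adjusted p = 0.057). It was called lower by DESeq2 (adjusted p = 0.0496) and in a fit of the Q-SEC and F-SEC libraries alone (0.036). Of the 9 endothelial markers 6 fell with CCl4 in SEC and 0 rose (median -1.24), none was at 0 in all libraries of a group, and their sum was 7095 to 10186 CPM in F-SEC. Their part in the levels of Igf1r was not tested. Igfbp4 (chromosome 11, 99041260 to 99052643, plus strand) stood at 1508, 1153 and 1170.5 CPM in Q-SEC and 1130.5, 894 and 784 CPM in F-SEC (-0.45 ± 0.26, adjusted p = 0.23). Igfbp7 (chromosome 5, 77349240 to 77408045, minus strand) was the highest member at 3313, 2305 and 2114 CPM in Q-SEC and 3430.0, 2673 and 3086 CPM in F-SEC (0.25 ± 0.34, adjusted p = 0.62). Igf1r was thus the member nearest to the threshold among these.

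Igf2, the fetal growth factor (chromosome 7, 142650768 to 142661035, minus strand), had 6 to 60 counts per library in the whole series. It measured 3.08, 1.88 and 2.05 CPM in Q-SEC and 4.70, 2.42 and 2.68 CPM in F-SEC (0.49 ± 0.50, adjusted p = 0.50). Igfbp1 differed by 0.33 ± 0.44 (adjusted p = 0.61) and Igfbp2, a binding protein of serum (chromosome 1, 72824480 to 72852471, plus strand), by 0.31 ± 0.53 (adjusted p = 0.70). Their libraries overlapped.

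**Figure D2:**
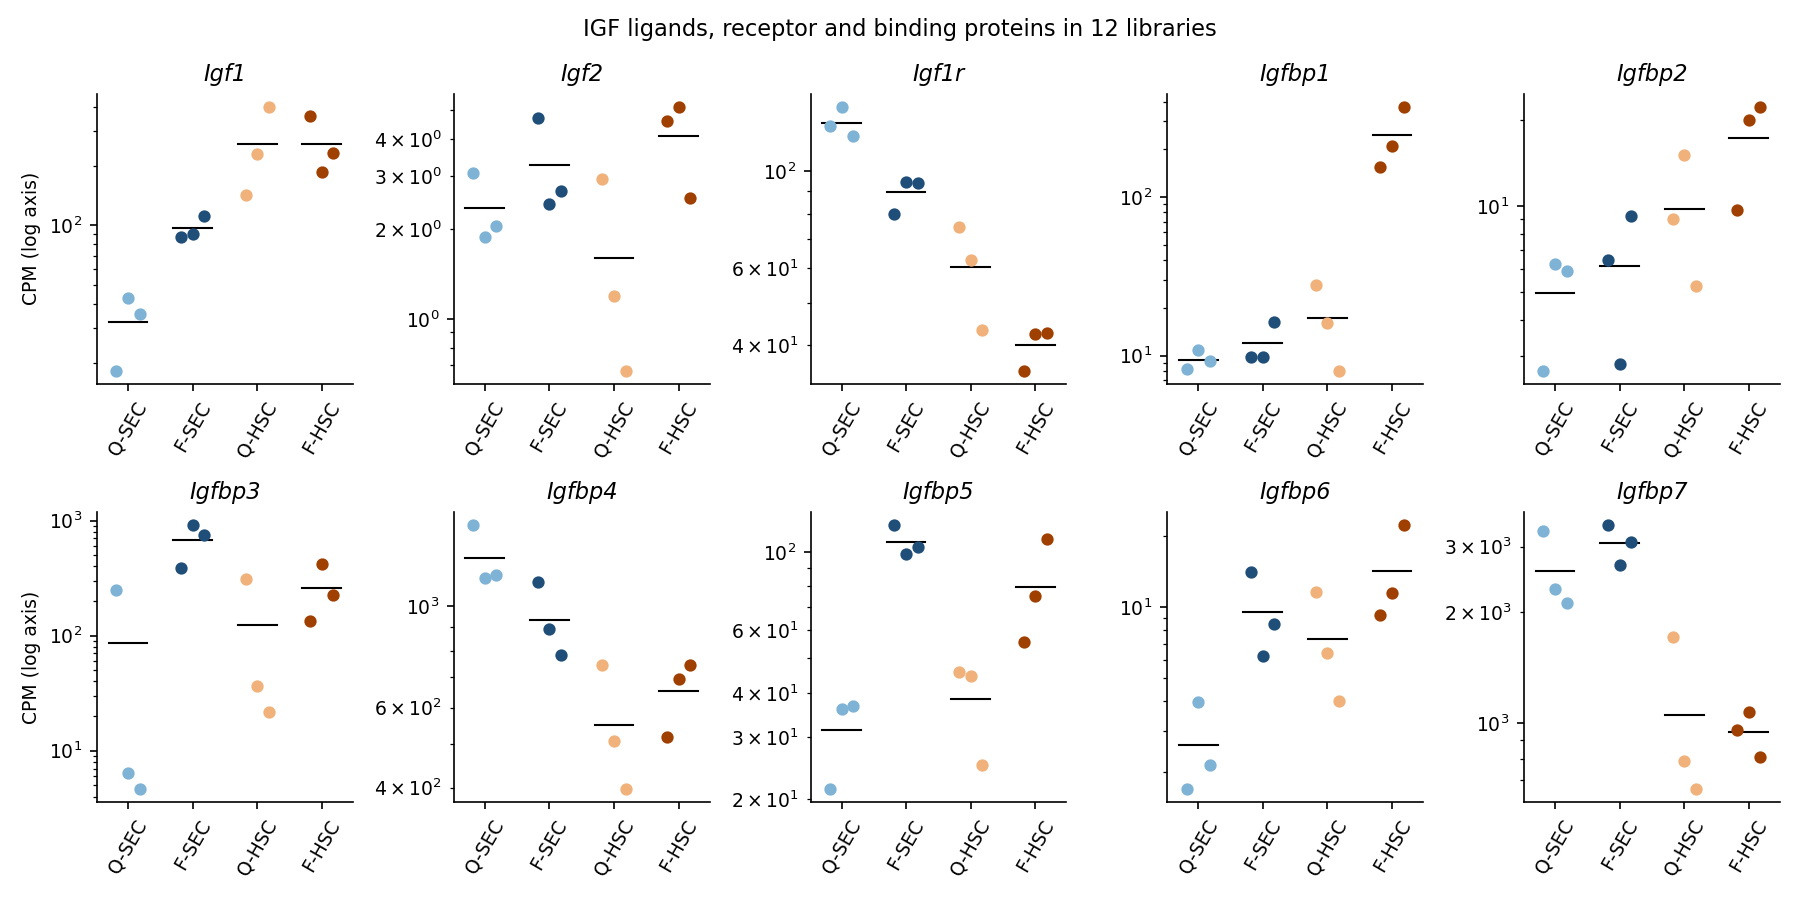
CPM of the 10 genes (one panel each, y axis logarithmic and scaled per panel) in the 4 groups, with 1 point per library in the order 1 to 3 and a line at the group mean. Igfbp3 in Q-SEC and Q-HSC falls into library 1 (250.4 and 310 CPM) and the other libraries (4.64 to 36.9 CPM), while Igfbp1 reaches 156 CPM or more in the F-HSC libraries only.

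The same was asked of the HSC fraction with F-HSC and Q-HSC. Igfbp1 rose 14.1-fold and Igfbp5 2.07-fold, and Igf1r fell 1.51-fold. With 3 of 10 members called, 2 higher and 1 lower, the members stood beside 32.3% of all tested genes (14.7% higher and 17.6% lower). The median log2 change was 0.88 over the members and -0.02 over all tested genes. No overlap between the groups was seen for 3 of 10 members and 46.0% of all tested genes.

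Igfbp1, an insulin-repressed binding protein of hepatocytes, measured 27.9, 16.1 and 8.05 CPM in Q-HSC and 156, 210.1 and 371 CPM in F-HSC. Every F-HSC library was far above the highest Q-HSC library. The log2 change was 3.82 ± 0.46 (adjusted p = 0.00070), from 3.40 to 4.39 when any 1 library was left out. Hepatocyte markers moved with it. Of the 12 markers 6 rose and 0 fell (median 1.54), none was at 0 in all libraries of a group, and they summed to 4946, 10106 and 4440 CPM in Q-HSC and to 15696, 25458 and 38416 CPM in F-HSC. The order of the F-HSC libraries was the same for Igfbp1 and for the marker sum. Within Q-HSC it was not, since Q-HSC.2 had the highest marker sum and the middle Igfbp1 level. The part of the hepatocyte RNA in the change was not tested.

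Igfbp5 measured 45.8, 44.6 and 25.0 CPM in Q-HSC and 55.5, 75.1 and 109 CPM in F-HSC. The groups did not overlap, but F-HSC.1 was close to the higher Q-HSC libraries. The log2 change was 1.05 ± 0.30 (adjusted p = 0.023), and the call ended without Q-HSC.3 (0.067) or F-HSC.3 (0.095). Myofibroblast markers moved with it (4 of 6 higher and 0 lower), with a sum of 111 to 572 CPM in Q-HSC and 3259 to 7856 CPM in F-HSC, as did the hepatocyte markers given above, and the part of either list was not tested. Igf1r measured 74.6, 62.7 and 43.4 CPM in Q-HSC and 35.0, 42.4 and 42.6 CPM in F-HSC. It fell by 0.59 ± 0.19 on the log2 scale (adjusted p = 0.032). This call ended in a fit of the Q-HSC and F-HSC libraries alone (0.12). It also ended when every gene with a read was kept (0.057) and with libraries 2 and 3 alone (0.29). Q-HSC.3 was barely above F-HSC, and the call held only without Q-HSC.3 among the libraries left out, the adjusted p being 0.16 without Q-HSC.1, 0.11 without Q-HSC.2, and 0.12, 0.065 and 0.069 without F-HSC.1 to F-HSC.3. Endothelial markers fell with it, 7 of 9 being lower and 0 higher (median -1.47), none at 0 in all libraries of a group, with a sum of 1804 to 3184 CPM in F-HSC. Their part in the fall of Igf1r was not tested.

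Igf1 was level between the groups, at 143, 229 and 399 CPM in Q-HSC and 356, 187 and 231 CPM in F-HSC (0.01 ± 0.39, adjusted p = 0.99). Both groups were widely spread, with overlap. The Kupffer cell and macrophage sum was highest in the same libraries, at 7244, 10063 and 21308 CPM in Q-HSC and 15130.0, 5913 and 6146 CPM in F-HSC. Igf2 measured 2.94, 1.20 and 0.671 CPM in Q-HSC and 4.57, 5.12 and 2.53 CPM in F-HSC (1.33 ± 0.51, adjusted p = 0.065, and 0.015 without Q-HSC.1). Q-HSC.1 was the library that overlapped with F-HSC.

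Igfbp3 measured 310, 36.9 and 21.7 CPM in Q-HSC and 135, 420 and 225 CPM in F-HSC. Again the first control library stood apart, here within the range of the CCl4 libraries. The log2 change was 1.08 ± 1.33 (adjusted p = 0.56). No fit with 1 library left out gave a call (adjusted p 0.14 to 0.79), that without Q-HSC.1 included. The change came to 3.52 ± 0.39 (adjusted p = 0.0012) when all libraries numbered 1 were left out, F-HSC.1 among them, the lowest of F-HSC. The stellate marker sums were 2647, 702 and 565 CPM in Q-HSC and 1145, 1803 and 1716 CPM in F-HSC, and their part was not tested. Igfbp2 (0.81 ± 0.51, adjusted p = 0.24), Igfbp4 (0.25 ± 0.26, 0.49), Igfbp6 (0.95 ± 0.48, 0.15) and Igfbp7 (-0.15 ± 0.34, 0.75) were not called.

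**Figure D3:**
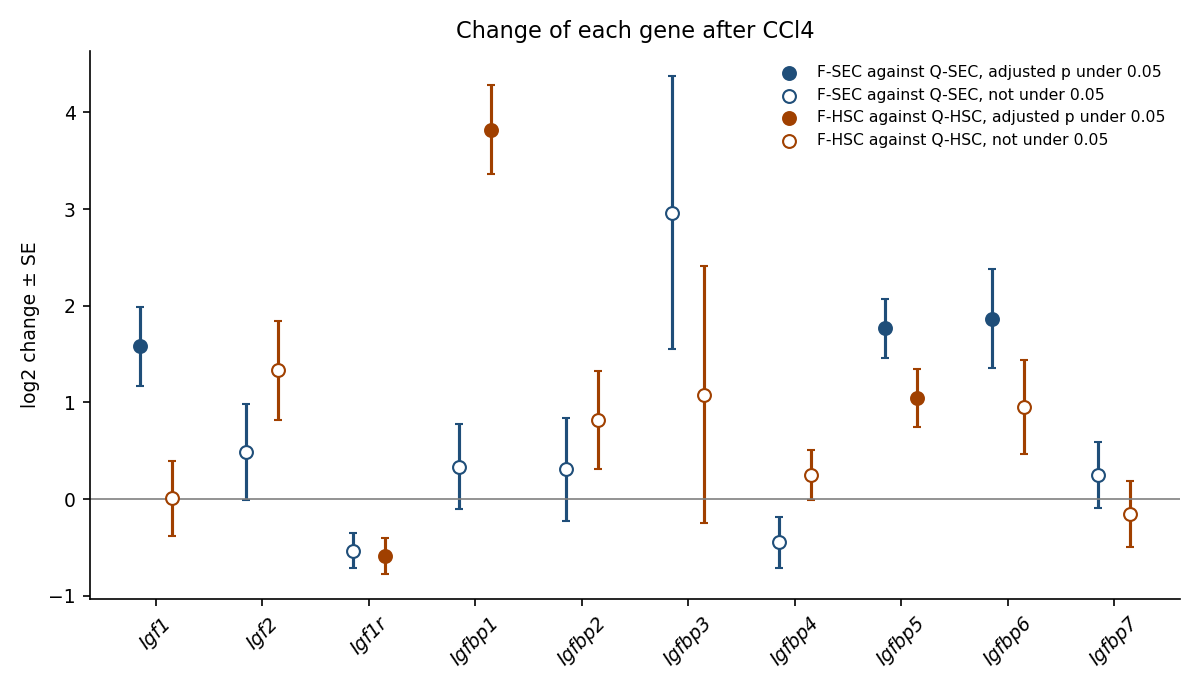
Log2 change ± SE of the 10 genes (y axis) in F-SEC against Q-SEC (blue) and F-HSC against Q-HSC (brown), filled where the adjusted p was under 0.05. Igfbp1 at 3.82 in HSC is the farthest filled point, and the open Igfbp3 points carry the longest error bars (1.42 and 1.33).

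Whether the changes with CCl4 differed between the fractions was tested as a difference of changes, SEC minus HSC. It was called for 1 of 10 members, 0 higher and 1 lower, against 0.801% of all tested genes (0.566% higher and 0.235% lower). The member was Igfbp1, at -3.49 ± 0.62 (adjusted p = 0.037). Its change was 0.33 in SEC and 3.82 in HSC. The call was lost in 9 of the 12 fits with 1 library left out (adjusted p up to 0.11) and with the replicate block (0.051), while the difference stayed between -3.99 and -3.06 in those 12 fits. Hepatocyte markers showed 0 of 12 called in SEC and 6 of 12 in HSC, and 0 of 12 for the difference (median -2.01). For Igf1 the difference was 1.57 ± 0.56 (adjusted p = 0.18), for Igfbp3 1.88 ± 1.88 (0.65) and for Igfbp5 0.72 ± 0.42 (0.40). With libraries 2 and 3 alone the difference was called for Igf1 (1.95 ± 0.38, adjusted p = 0.018), Igfbp3 (3.76 ± 0.55, 0.0095) and Igfbp4 (-1.14 ± 0.26, 0.032) as well as for Igfbp1. In that setting 1712 of all genes were called for the difference, where 116 were called with all libraries.

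In control liver, the fractions were compared as Q-SEC against Q-HSC. Igf1r, Igfbp4 and Igfbp7 were higher in Q-SEC and Igf1 was higher in Q-HSC. These were 4 of 10 members, 3 higher and 1 lower, beside 29.8% of all tested genes (15.5% higher and 14.3% lower), with no overlap for 5 members and for 47.4% of tested genes. The median log2 difference was -0.39 over the members and 0.01 over all tested genes. Igf1 was 7.98-fold lower in Q-SEC (log2 difference -3.00 ± 0.43, adjusted p = 0.00072). All 10 Kupffer cell and macrophage markers were lower too (median -4.43), and their part was not tested. Igf1r differed by 1.10 ± 0.19 (2.15-fold, adjusted p = 0.0015) and Igfbp4 by 1.22 ± 0.26 (2.33-fold, adjusted p = 0.0054), its Q-HSC libraries being at 744, 506 and 397 CPM. Igfbp7 measured 1710 (Q-HSC.1), 787 and 662 CPM in Q-HSC. It was 2.45-fold higher in Q-SEC (1.29 ± 0.34, adjusted p = 0.016), a call that ended without Q-SEC.1 (0.055), Q-HSC.2 (0.076) or Q-HSC.3 (0.067). All 9 endothelial markers were higher in Q-SEC (median 1.56), and their part in these differences was not tested. Igfbp6 was close to the threshold (-1.49 ± 0.52, adjusted p = 0.0504). Igfbp3 (-0.50 ± 1.32, adjusted p = 0.81) ran from -4.47 without Q-SEC.1 (adjusted p = 0.021) to 1.55 without Q-HSC.1.

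In fibrotic liver, F-SEC was compared with F-HSC. Igf1r and Igfbp7 were again higher in the SEC fraction, and Igf1 and Igfbp1 were lower. They made 4 of 10 members, 2 higher and 2 lower, against 25.3% of all tested genes (12.6% higher and 12.8% lower), with no overlap for 6 members and for 40.8% of tested genes. The median log2 difference was 0.05 over the members and 0.01 over all tested genes. Igfbp1 was 20.6-fold lower in F-SEC, at 9.75, 9.88 and 16.2 CPM (-4.36 ± 0.47, adjusted p = 0.00072). All 12 hepatocyte markers were lower in F-SEC (median -2.78). Igfbp7 was 3.24-fold higher in F-SEC (1.69 ± 0.35, adjusted p = 0.0056), with 959, 1073 and 807 CPM in F-HSC, and Igf1r 2.24-fold higher (1.16 ± 0.19, adjusted p = 0.0020). All 9 endothelial markers were higher in F-SEC too (median 1.91). Igf1 was 2.68-fold lower (-1.42 ± 0.40, adjusted p = 0.025), no longer called without F-SEC.1 (0.076), F-SEC.2 (0.075), F-SEC.3 (0.054) or F-HSC.1 (0.074). Of the Kupffer cell and macrophage markers 6 of 10 were lower (median -1.84), and the part of these marker lists was not tested.

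Over the 4 groups, Igf1r was the gene whose group means could be ordered throughout, with Q-SEC above F-SEC, F-SEC above Q-HSC and Q-HSC above F-HSC and no overlap between neighbours. Igf1 was highest in F-HSC and Q-HSC, which overlapped, followed by F-SEC and Q-SEC, which were each separate from the group above. For Igfbp1, F-HSC was separate and the other 3 groups overlapped in sequence. Igf2, Igfbp2 and Igfbp3 overlapped between all neighbours in their order.

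**Figure D4:**
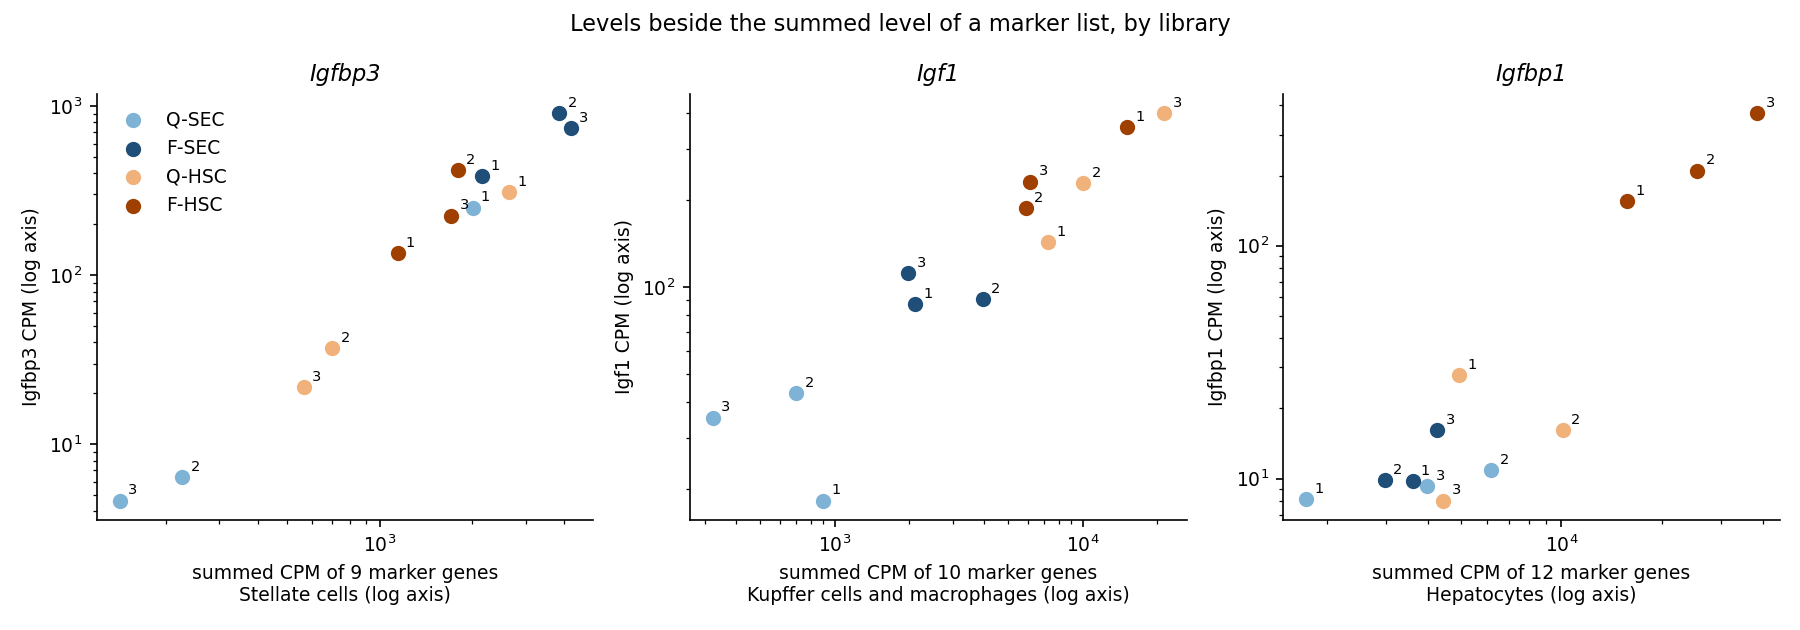
Level of a gene (y axis, CPM, logarithmic) against the summed CPM of a marker list (x axis, logarithmic) with 1 point per library, numbered within its group, for Igfbp3 with 9 stellate markers, Igf1 with 10 Kupffer cell and macrophage markers and Igfbp1 with 12 hepatocyte markers. Q-SEC.1 and Q-HSC.1 lie near the CCl4 libraries on both axes of the first panel, at 2011 and 2647 CPM of stellate markers.

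The genes most like each member over the 12 libraries were sought among the 10265 tested genes that averaged 10 CPM or more, by the Pearson correlation of log2 CPM. These values describe libraries that share fractions, depths and group differences, and carry no test. Closest to Igfbp3 were Fam171b (0.99), Ccbe1 (0.99) and Angptl2 (0.99). Igfbp1 was followed by Rcl1 (0.98), Ehhadh (0.97), an enzyme of peroxisomal fatty acid oxidation, and Mthfd1 (0.97), an enzyme of folate metabolism. Nearest to Igf1 were Tnfaip8 (0.98), Prkcd (0.98) and Milr1 (0.98), and to Igf1r Hspa12a (0.99), Dab2ip (0.99) and the TGF-β co-receptor Tgfbr3 (0.99). Igfbp5 was most like Cacnb3 (0.96), the procollagen proteinase Bmp1 (0.94) and Mmp23 (0.93), and Igfbp4 most like Mrrf (0.96), Pvr (0.96) and Tmem98 (0.95). For Igfbp7 the nearest were Pcdhgb4, Pcdhga1 and Pcdhga5 (each 0.99), protocadherin genes that share exons, so that their counts are not independent.

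In the list of IGFBP proteases and carriers (10 of 11 genes tested), 6 rose and 0 fell in F-SEC and likewise in F-HSC, with median log2 changes of 1.57 and 1.79. Over all tested genes 11.8% were higher and 12.1% lower in F-SEC (median -0.05), and 14.7% and 17.6% in F-HSC (median -0.02), the background for the other pathway lists as well. Igfals, Adamts1, Stc1 and C1ra were not called in either fraction. The complement protease C1s, which cleaves IGFBP5, rose 6.05-fold in F-SEC, from 26.7 ± 11.1 to 162 ± 25.0 CPM (adjusted p = 0.0023), and 4.53-fold in F-HSC, from 43.6 ± 19.6 to 197 ± 55.0 CPM (adjusted p = 0.0033). Mmp2, a gelatinase that also cuts binding proteins, rose from 8.33 ± 12.0 to 228 ± 25.4 CPM in SEC (adjusted p = 0.0078) and from 14.9 ± 14.0 to 128 ± 9.31 CPM in HSC (adjusted p = 0.026). The HSC call of Mmp2 ended without Q-HSC.2 (0.083), Q-HSC.3 (0.083) or F-HSC.3 (0.056). The serine protease Htra1 rose 3.42-fold in HSC (adjusted p = 0.0046) and 2.23-fold in SEC (0.032), the latter call ending without Q-SEC.2 (0.11), Q-SEC.3 (0.079), F-SEC.1 (0.083) or F-SEC.3 (0.082). Pappa, which encodes PAPP-A, had 0 to 2 counts in the Q-SEC libraries and 14 to 32 in F-SEC (adjusted p = 0.0049), and 2 to 10 counts in Q-HSC and 23 to 34 in F-HSC (adjusted p = 0.018, and 0.063, 0.063 and 0.057 without Q-HSC.2, Q-HSC.3 and F-HSC.3). The myofibroblast marker sum rose with this list in both fractions. In F-HSC 6 of 12 hepatocyte and 4 of 4 scar-associated macrophage markers rose too, with 0 lower in each. In F-SEC so did the macrophage and stellate markers given above. The part of any of these lists was not tested.

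The list of IGFBP-related proteins, which share the IGFBP domain, had 8 of 9 genes tested. In F-SEC 4 rose and 1 fell (median 0.76), and in F-HSC also 4 rose and 1 fell (median 0.86). Kazald1 rose 4.13-fold in SEC (adjusted p = 0.0032) and 3.89-fold in HSC (0.0035). Wisp2 had 0 to 1 counts in Q-SEC and 24 to 52 in F-SEC (adjusted p = 0.0016), and 0 to 5 in Q-HSC and 25 to 33 in F-HSC (0.0044). Nov, a matricellular protein, had 2 to 3 counts in Q-SEC and 15 to 30 in F-SEC (adjusted p = 0.0019), and 4 to 6 in Q-HSC and 12 to 16 in F-HSC (0.023, and 0.069, 0.069 and 0.090 without Q-HSC.2, Q-HSC.3 and F-HSC.3). Cyr61, an immediate early matricellular gene, rose 3.87-fold in HSC (adjusted p = 0.0033). The member that fell in both was Crim1, a transmembrane antagonist of BMPs, from 454 ± 16.7 to 232 ± 36.3 CPM in SEC (adjusted p = 0.011) and from 193 ± 55.3 to 109 ± 21.0 CPM in HSC (0.016). The HSC call of Crim1 ended without Q-HSC.1 (0.073), F-HSC.1 (0.061) or F-HSC.3 (0.051). Endothelial markers fell in both fractions as given for Igf1r, and their part in the level of Crim1 was not tested.

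**Figure D5:**
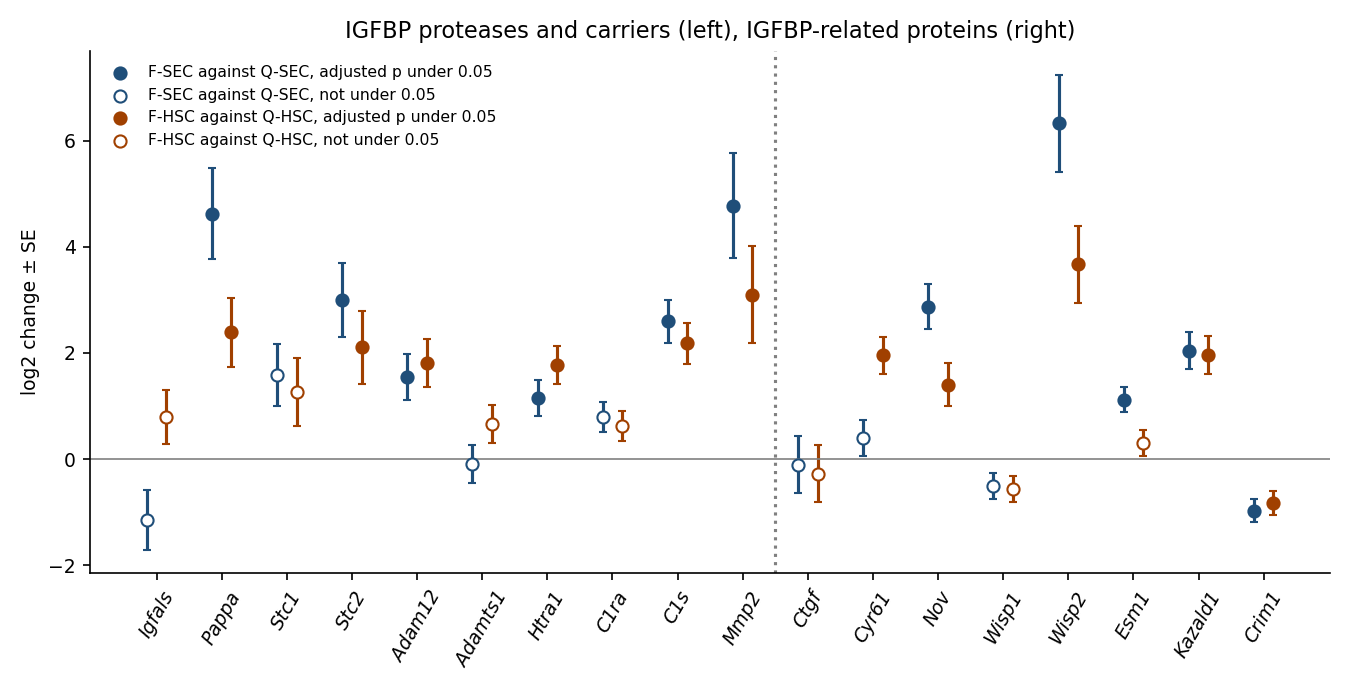
Log2 change ± SE (y axis) of the tested IGFBP proteases and carriers (left of the dotted line) and IGFBP-related proteins (right) in F-SEC against Q-SEC (blue) and F-HSC against Q-HSC (brown), filled where the adjusted p was under 0.05. Crim1 is the only filled point below 0. The fitted values of Pappa, Wisp2 and Nov rest on controls with 0 to 10 counts and depend on the prior count.

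Receptors and transducers of the IGF signal (20 of 21 genes tested) moved in both directions, with 4 higher and 3 lower in F-SEC (median 0.17) and 6 higher and 3 lower in F-HSC (median 0.11), where 23.8 and 32.3% of all tested genes were called. Igf2r, the receptor that clears IGF2, rose 4.62-fold in HSC, from 61.2 ± 2.08 to 283 ± 76.9 CPM (adjusted p = 0.00029), and in SEC was at 54.5 ± 3.31 and 74.4 ± 15.0 CPM (0.13). The insulin receptor substrate Irs2 rose 7.15-fold in SEC (adjusted p = 0.0052) and 5.24-fold in HSC (0.0070), and the adaptor Shc1 by 0.58 ± 0.10 (0.0038) and 0.48 ± 0.10 (0.0067) on the log2 scale. Irs1 rose 7.86-fold in HSC (adjusted p = 0.0055), and its call in SEC (0.045) ended without any of 5 libraries (0.10 to 0.12) and with the replicate block (0.052). The SEC call of Irs1 also ended with limma-voom (0.15) and when every gene with a read was kept (0.054). The insulin receptor Insr fell 2.32-fold in SEC, from 447 ± 92.4 to 193 ± 42.4 CPM (adjusted p = 0.0061), beside the fall of the endothelial markers given for Igf1r, whose part was not tested. Pik3r1, a regulatory subunit of PI3 kinase, fell by 0.59 ± 0.14 on the log2 scale in HSC (adjusted p = 0.010, and 0.051 in a fit of the compared libraries alone). The call of Foxo1 as lower in SEC (0.035) ended with the omission of any 1 of the compared libraries (0.052 to 0.16). So did the call of Pik3ca as lower in HSC (0.039, then 0.052 to 0.14). The call of Pdpk1 as lower in SEC (0.024) ended without Q-SEC.2 (0.071), Q-SEC.3 (0.081), F-SEC.1 (0.072) or F-SEC.3 (0.067).

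Of the 8 genes of the growth hormone axis 0 rose and 1 fell in F-SEC (median -0.11), and 0 rose and 2 fell in F-HSC (median -0.12). Stat5b, the transcription factor through which growth hormone induces Igf1 in hepatocytes, fell from 147 ± 8.0 to 90.9 ± 11.9 CPM in SEC (adjusted p = 0.0036) and from 108 ± 3.70 to 70.5 ± 2.27 CPM in HSC (0.0045). It was higher in SEC than in HSC in control (0.017) and fibrotic liver (0.047). The endothelial markers fell in both fractions as given for Igf1r, and their part in the level of Stat5b was not tested. The kinase Jak2 fell by 0.61 ± 0.20 on the log2 scale in HSC (adjusted p = 0.043), and its call ended without Q-HSC.1, Q-HSC.2 or Q-HSC.3 (0.12, 0.12 and 0.091) and without F-HSC.1 or F-HSC.3 (0.16 and 0.10). This call also ended with RLE scaling (0.052) and with the looser and stricter count filters (0.0715 and 0.060). The compared libraries alone (0.10) and libraries 2 and 3 alone (0.11) ended it too. Among the RNA partners of Igf2 (3 of 5 tested), H19, the imprinted non-coding RNA next to Igf2, rose 9.26-fold in SEC, from 0.882 ± 0.41 to 8.26 ± 4.32 CPM (adjusted p = 0.0039), and 17.3-fold in HSC, from 0.497 ± 0.14 to 8.70 ± 4.47 CPM (0.0015). Igf2bp2, an RNA-binding protein, rose by 1.59 ± 0.45 on the log2 scale in HSC (adjusted p = 0.022, and 0.052, 0.062 and 0.052 without Q-HSC.1, Q-HSC.2 and F-HSC.1). These counts were 1 of 3 called in SEC (median 0.47) and 2 of 3 in HSC (median 1.59).

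Some member counts have limits of assignment, since it is not given whether counting used strand or how shared reads were assigned. Igfbp7 overlaps Polr2b on the opposite strand by 89 bases, and Igf2 overlaps the antisense entry Igf2as, which had 0 to 4 counts. Separately listed cDNA clones lie in members, and the clone in Igfbp4 held counts equal to 52.6 to 59.6% of those of the gene. The clone in Igf2 held 5 to 38 counts, or 54.5 to 83.3% of those of the gene. In Igf1r the clone with the most counts held 23.1 to 29.8%. In Igfbp5 the larger clone held 29.9 to 41.3%, and in Igf1 the larger one 9.92 to 19.8%. Whether these reads were counted for the gene as well cannot be told from the table.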

How the data were processed

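Freshly isolated fractions were sequenced on an Illumina HiSeq. According to the labels, reads were generated by the authors with bcl2fastq, whose version is not stated, and mapped with TopHat2 2.0.13 to mm10. The counting tool and its handling of strand are not given in the sources used here. The deposited table holds, for each annotated entry, the read count of the authors and their RPKM, in which the count is divided by entry length and by the total of the column. One line without values is not analysed here. Gene entries (23472) were used and cDNA clone entries (33353) left out, after repair of 27 symbols that had turned into dates. Titles number only the later libraries of a group, and the unnumbered one was taken as 1. Count and RPKM matched to within 0.1% except in 8 of 482711 values above 0. The exceptions lie in 6 genes and 5 libraries and in no IGF member, but Des, Cdh5, Flt4 and Kdr belong to marker lists used here. The table does not show which column is right, and the counts were used as deposited.

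The quasi-likelihood test of edgeR 4.0.16 (R 4.3.3, robust) was run on the counts of the 14489 genes left by filterByExpr. Scaling was by TMM, with factors between 0.899 and 1.09, and each group had its own coefficient in a single fit of the 12 libraries, which left 8 residual degrees of freedom at a common biological coefficient of variation of 0.28. Benjamini-Hochberg adjustment covered every tested gene, and calls were made under 0.05. The SE was taken as the size of the log2 change over the root of the F statistic. The members and gene lists were chosen with earlier results of these data known. Each member was named. From a pathway list came the called genes with the lowest adjusted p, 4 at most, and any gene called against the direction of most called genes of its list, and a gene this rule selected is not reported here. For likeness the 3 best genes were taken for each member averaging 10 CPM or more, on log2 CPM with a prior count of 2. The symbols Adgre1 (present as Emr1), Igf2os and Ly6g were not matched in the table. All 10 members matched RefSeq promoter windows.

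Deviations from the group means correlated between all libraries of equal number in Q-SEC and F-SEC (r = 0.31, 0.25, 0.16) and in F-SEC and F-HSC (r = 0.47, 0.45, 0.43), so blocked values accompany the calls they change in these comparisons. The alternatives were RLE scaling, looser and stricter count filters (1 read, 10 CPM), DESeq2 1.42.0, voom in limma 3.58.1, an adjusted p under 0.01, an added 2-fold limit, fits of the compared groups only, the replicate block, omission of each library, and libraries 2 and 3 alone. Libraries within a group differed well beyond sampling noise (chi-square 19.9 to 188 per degree of freedom). Floors cover counting error only.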

Additional observations from a re-analysis of the deposited data

Results flagged for a closer look

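The change of Igfbp1 with CCl4 differed between the fractions by a test of the difference itself. The difference, SEC minus HSC, was -3.49 ± 0.62 on the log2 scale (edgeR adjusted p = 0.037), with changes of 0.33 in SEC and 3.82 in HSC. All 3 F-HSC libraries were above all Q-HSC libraries, while the SEC libraries overlapped. Over all alternatives in which a p could be had, the difference kept its sign, and its adjusted p was 0.059 with limma-voom, 0.051 with the replicate block and up to 0.11 with a library left out. The summed level of 12 hepatocyte markers was 15696 to 38416 CPM in F-HSC and 1728 to 10106 CPM in the other 9 libraries. Its part in the difference was not tested.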

How the results depend on the processing

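Of 735 values for the members under the alternatives, 656 kept direction and side of the threshold, 35 lost a call, 27 gained one and 17 changed sign, 0 of these 17 with a call before or after. Of the pathway values 562 held, 69 lost a call, 2 gained one and 1 changed sign. Not every setting that ended a call is named beside its result. The cause was not tested in any case.

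At an adjusted p under 0.01, 1 member was called in F-SEC against Q-SEC (1262 of all genes), 1 in F-HSC against Q-HSC (1985). The difference had 0 members (4 genes), and all-gene counts were 2399 in Q-SEC against Q-HSC and 1679 in F-SEC against F-HSC. With the 2-fold limit the all-gene counts were 1840, 2629, 2750 and 2324 in the 4 comparisons of groups, in that order. Fitting only the compared libraries left 1 member in F-HSC against Q-HSC. For the difference, limma-voom called 0 members and 27 genes and DESeq2 911 genes. The main fit called 4680 of all genes in F-HSC against Q-HSC, or 32.3% of those tested. This count stayed within 1.5 times with the compared libraries only and with libraries 2 and 3 alone. With libraries 2 and 3 alone, 6 of 10 members were called in F-HSC against Q-HSC, beside an all-gene count known here only to that bound. The difference then had 4 members and 1712 genes. Members whose sign changed in this setting, none of them called, were Igf1 (-0.53) and Igfbp7 (0.43) in F-HSC against Q-HSC, Igf1r (-0.15) and Igfbp6 (-0.43) for the difference and Igfbp5 (0.043) in Q-SEC against Q-HSC. Pdpk1 in F-HSC against Q-HSC came to 0.020.

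Fits with the replicate number as a block called 0 members and 183 genes for the difference. Block values stand beside the results whose call changed in the paired comparisons. In F-HSC against Q-HSC, where same-numbered libraries did not deviate together (-0.09, 0.24 and -0.28), the block also called Igf2 (0.016) and Insr (0.027). In Q-SEC against Q-HSC these correlations were 0.53, 0.50 and -0.01. For members it changed no other call.

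Leaving out single libraries gave 1 to 3 members and 1710 to 3179 genes in F-SEC against Q-SEC, 1 to 3 members and 2612 to 4365 genes in F-HSC against Q-HSC, 0 to 1 members and 3 to 743 genes for the difference, and 2445 to 3285 genes in F-SEC against F-HSC. The log2 values of these members crossed 0, with no call where the sign differed from that over all libraries, and ran from -0.0075 to 0.65 for Igfbp2 in SEC, -0.24 to 0.51 for Igf1 and -0.36 to 0.43 for Igfbp7 in HSC, -0.10 to 0.28 for Igf1r, -0.18 to 5.86 for Igfbp3 and -0.11 to 0.68 for Igfbp7 as a difference, and -4.47 to 1.55 for Igfbp3 between the control fractions. The all-gene count moved by over 1.5 times without Q-SEC.2, Q-SEC.3, F-SEC.1 or F-SEC.3 in F-SEC against Q-SEC, without Q-HSC.3 or F-HSC.3 in F-HSC against Q-HSC, without F-HSC.3 in F-SEC against F-HSC, and without any of the 12 libraries for the difference. Igf2 had 6 to 60 counts per library, so small differences were not detectable at this depth.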

Other observations

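In 8 values the deposited count and RPKM of a gene disagreed by more than 0.1%. The counts were 959 against 1166 reads implied by the RPKM for Jag1 in F-SEC.1, 431 against 365 for Jag1 in Q-SEC.3, 2116 against 1896 for Hes1 in F-SEC.2, 1632 against 1653 for Hes1 in Q-SEC.1, 66 against 53.4 for Des in Q-SEC.1, and 7513 against 7522 for Cdh5, 7308 against 7206 for Flt4 and 11069 against 11255 for Kdr in Q-HSC.1. The reason was not tested, and the other 482703 values above 0 agreed.

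Across the 12 libraries the IGF genes did not move as a block. Pearson correlations of log2 CPM, given as a description over libraries that share group differences, were -0.94 for Igf1 with Igfbp4, -0.91 for Igf1 with Igf1r and 0.85 for Igfbp4 with Igfbp7, whereas the neighbours Igfbp1 and Igfbp3 stood at 0.29 and Igfbp3 and Igfbp4 at 0.02.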
